A study of Mus musculus with 9 samples.

Results

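The genes described here encode ligands and receptors by which neighbouring cells attract, repel or sort themselves: semaphorins with their plexin and neuropilin receptors, ephrins with the Eph receptors, Slits with the Robo receptors, and netrins with the Unc5 receptors. They were chosen by gene symbol alone, as the protein-coding genes of these 9 families in the GENCODE M21 annotation, a rule that uses no measured value, although the families themselves were picked with earlier results of these data known. In all, 68 of the 52780 genes in the count table were members, namely 20 semaphorins, 9 plexins, 2 neuropilins, 8 ephrins, 14 Eph receptors, 3 Slits, 4 Robos, 4 netrins and 4 Unc5 receptors. PolyA-selected mRNA was sequenced from C2C12 cells, an immortal mouse myoblast line that leaves the cell cycle and fuses into myotubes once serum is lowered, and the cells were collected at day 4 of differentiation. The 9 samples were 3 of control cells, labelled wild type, 3 of cells transfected with siRNA to macroH2A1.1 (si macroH2A1.1) and 3 with siRNA to macroH2A1.2 (si macroH2A1.2), with siRNA used at 10 nM and delivered repeatedly around the start of differentiation. The labels do not say whether the control cells received a control siRNA. MacroH2A1 is a histone variant, and its isoforms arise from mutually exclusive exons of the gene H2afy, so that the study asked what the loss of each isoform does to gene expression during myotube formation. All samples come from 1 cell line. The study describes its replicates as independent and biological, without saying whether these were separate cultures or separate rounds of transfection.

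Class 3 semaphorins are secreted and mostly act through neuropilins paired with type A plexins, whereas the other mouse semaphorins are mostly bound to the membrane and bind plexins directly. Eph receptors are receptor tyrosine kinases whose ephrin ligands sit on the adjoining cell, so that both cells receive a signal on contact. Slits are secreted repellents read by Robo receptors, and netrins attract through Dcc or neogenin and repel through Unc5 receptors. In muscle these systems are known for guiding motor axons to their targets and for steering muscle precursors, and netrin signalling through neogenin is known to take part in myoblast fusion.

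Totals ranged from 36924252 to 42223108 counts per sample, with a median of 38540234. Levels are given as CPM, read counts normalised to the TMM-scaled library size of each sample, and levels of different genes are compared only as CPM per kb of the longest coding transcript. Unless stated otherwise, values are in the order of replicates 1 to 3, means carry the SD of 3 samples, fold changes are on the log2 scale with their standard error (SE), and adjusted p-values are from edgeR's quasi-likelihood test over 19545 genes (Benjamini-Hochberg). A gene is called, or said to rise or fall, at an adjusted p below 0.05. H2afy, counted over both isoforms, had 56.3, 62.4 and 61.0 CPM in control, 38.8, 30.01 and 30.9 with si macroH2A1.1 and 46.8, 47.2 and 43.2 with si macroH2A1.2. It fell with si macroH2A1.1 (log2 fold change -0.85 ± 0.11, adjusted p = 0.00331), while its difference with si macroH2A1.2 was -0.39 ± 0.11 (adjusted p = 0.108, or 0.0391 in DESeq2). Every si macroH2A1.2 sample lay below every control sample. Counts over both isoforms do not measure the loss of either one, for which the study reports immunoblots showing specific depletion.

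The 13 markers of myotubes were detected in every sample. Of these, Myh1 rose and Myog and Mymx fell with si macroH2A1.1, and Myh1, Des and Tnnt3 fell with si macroH2A1.2. All 8 markers of the interferon response rose with si macroH2A1.1, where their summed level was 257.9, 140.1 and 536 CPM, against 31.9 to 39.0 in control and 28.2 to 45.4 with si macroH2A1.2. Markers of undifferentiated or proliferating myoblasts summed to 291.5 to 447 CPM in control, 412 to 775 with si macroH2A1.1 and 245 to 335 with si macroH2A1.2. Of these 8 genes 0 were called with si macroH2A1.1 against control, where 11.1% of all tested genes were called and the summed ranges overlapped. That count depends on the model. With the replicate number as a block, Pax7, Mki67, Top2a and Ccnb1 were called higher (adjusted p = 0.0314, 0.00815, 0.0246 and 0.0304), against 20.8% of all genes called. DESeq2 called Mki67 and Cdk1 higher (adjusted p = 0.0116 and 0.0415). Myf5 fell with si macroH2A1.2. Between the knockdowns 6 of the 8 were higher and 2 lower with si macroH2A1.1, where 12.0% of all tested genes were higher and 10.5% lower.

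Fibroblast markers were abundant, the 5 genes summing to 672 to 908 CPM in control, 677 to 1144 with si macroH2A1.1 and 852 to 1093 with si macroH2A1.2. Of these Dpt, which encodes a matrix protein, was 6.77, 12.4 and 7.55 CPM in control, 2.22, 5.95 and 3.32 with si macroH2A1.1 and 34.6, 34.4 and 20.03 with si macroH2A1.2. The group means of Dpt and Cd34 had the same order as those of Slit2. Those of Ly6a had the reverse order, and those of Pdgfra and Dcn were lowest in control. Dpt rose with si macroH2A1.2 (1.74 ± 0.36, adjusted p = 0.0365), and between the knockdowns Dpt and Cd34 were lower and Ly6a higher with si macroH2A1.1 (-2.95 ± 0.38, -1.41 ± 0.34 and 0.81 ± 0.25, adjusted p = 0.000834, 0.0154 and 0.0426). The 5 neuron markers summed to 49.1 to 77.7 CPM in control, 65.0 to 105 with si macroH2A1.1 and 46.5 to 61.4 with si macroH2A1.2, nearly all of it Stmn2 (65.8 ± 15.9 CPM in control), while Rbfox3 was at or under 3 counts in every sample. Stmn2 was higher and Syt1 lower with si macroH2A1.1 than with si macroH2A1.2 (0.70 ± 0.21 and -1.51 ± 0.36, adjusted p = 0.0372 and 0.0156), and Syt1 also fell against control (-1.76 ± 0.36, adjusted p = 0.0157). The 5 macrophage markers summed to 2.91 to 4.05 CPM in control, 6.15 to 11.6 with si macroH2A1.1 and 3.47 to 3.63 with si macroH2A1.2. Cd68, a lysosomal protein, made up most of this and rose with si macroH2A1.1 (1.62 ± 0.25, adjusted p = 0.00565), whereas Adgre1 was at or under 3 counts in every sample. The 5 endothelial and 4 Schwann cell markers each summed to at most 4.38 CPM in any sample, with Emcn and Sox10 at or under 3 counts, and of these 9 genes Tek rose with si macroH2A1.1 (1.84 ± 0.46, adjusted p = 0.0330). The samples come from 1 myoblast line, so the marker lists of other cell types are read here as genes of these cultures. The part of these marker differences in the guidance genes was not tested. In bulk mRNA fewer cells in a state of differentiation and less mRNA per cell cannot be told apart.

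Of the 68 guidance genes, 61 had enough counts to be tested. Epha6 had no count in any sample, and Sema5b, Epha8, Epha10, Robo3, Robo4 and Unc5a were too low to test, at most 1.01 CPM in any sample. In control cells 34 members reached 10 CPM on average and 13 lay under 1 CPM. Per length, Plxnb2, a plexin that binds class 4 semaphorins, stood highest at 84.7 ± 4.61 CPM per kb, above Sema3b at 36.2 ± 3.04, Sema3d at 33.8 ± 4.64, Plxna1 at 26.2 ± 3.14 and Nrp2 at 24.2 ± 3.73. Plxnb2 was clear of the rest, whereas Sema3b and Sema3d, Sema3d and Plxna1, and Plxna1 and Nrp2 each overlapped within their SD. Sema3c, at 23.8 ± 6.46 CPM per kb, overlapped Plxna1 and Nrp2, so the order below Plxnb2 is not resolved. The highest member of the other families was Epha2 at 16.8 ± 2.68 CPM per kb among Eph receptors, Unc5b at 17.5 ± 2.17, Ntn4 at 12.2 ± 1.31, Efnb2 at 9.52 ± 0.763, Robo1 at 3.64 ± 0.796 and Slit2 at 3.16 ± 0.604.

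**Figure D1:**
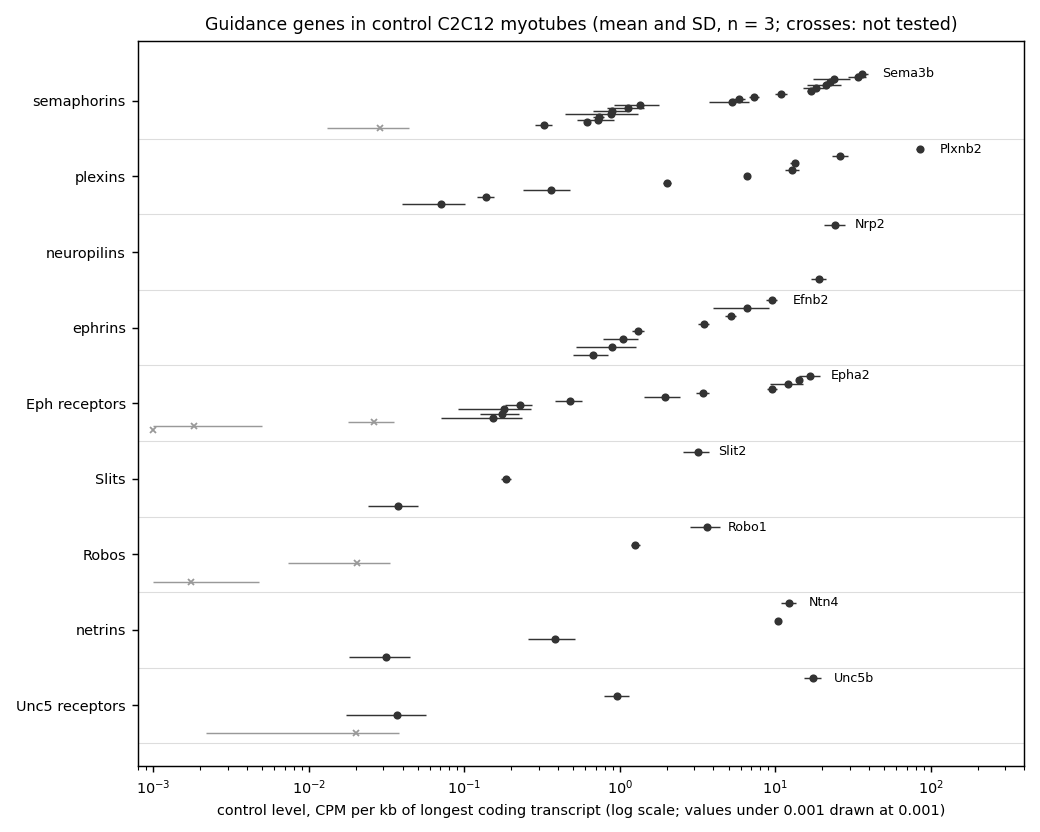
Level of each guidance gene in control cells, as CPM per kb of the longest coding transcript on a log axis, by family. Points are means and bars the SD of 3 samples, crosses are the 7 genes too low to test, and the highest gene of each family is named, from Plxnb2 at 84.7 to Slit2 at 3.16 CPM per kb.

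With si macroH2A1.1 against control, 14 of the 61 tested members were called (23.0%), 9 higher and 5 lower, where 11.1% of all tested genes were called, 6.18% higher and 4.93% lower. Those that rose were Sema4d, Plxna1, Plxna2, Plxnd1, Efnb2, Ephb1, Slit1, Robo2 and Ntn1, and those that fell were Sema3d, Nrp2, Epha3, Ephb3 and Slit2. With the replicate number as a block, 23 members were called, 15 higher and 8 lower, against 20.8% of all genes. The further ones were Sema4c, Plxnb1, Plxnb3, Efna4, Ntn4 and Unc5d, which were higher, and Sema3a, Sema5a and Ephb6, which were lower, with adjusted p-values of 0.0108 to 0.0465 with the block and 0.0571 to 0.152 without it. Unless the block is named, calls below are those of the fit without it. With si macroH2A1.2 against control, 8 were called (13.1%), 7 higher and 1 lower, against 2.35% of all genes, 1.37% higher and 0.982% lower. Plxna4, Efnb2, Epha1, Ephb6, Slit2, Ntn1 and Unc5b rose and Sema6c fell. In that contrast the block gave 13 members, 10 higher and 3 lower (5.14% of all genes), the further ones being Sema7a, Epha3 and Ephb2, which were higher, and Sema3d and Sema3g, which were lower.

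Directly between the knockdowns, 23 members were called (37.7%), 7 higher and 16 lower with si macroH2A1.1 than with si macroH2A1.2, against 22.5% of all genes, 12.0% higher and 10.5% lower. With the block there were 28 (29.0% of all genes), the further ones being Sema3g, Sema6c, Plxna1 and Ntn4, which were higher, and Nrp1, which was lower. Under a stricter rule, with adjusted p-values below 0.01 and log2 changes of 0.8 or more in either direction, 10 members passed between the knockdowns (6.38% of all genes), 1 with si macroH2A1.1 against control (1.8%) and 0 with si macroH2A1.2 against control (0.179%). For the last contrast edgeR gave 22 members an unadjusted p below 0.05. Over the tested members the median log2 fold change was 0.09 with si macroH2A1.1, 0.21 with si macroH2A1.2 and -0.08 between them, beside -0.01, 0.00 and -0.01 over all genes. The 2 contrasts against control share their control samples. Of 30 members called in any contrast, 11 were called only between the knockdowns. The matching shares of all genes were not computed, so these counts describe the list alone. The contrast between the knockdowns also called the most of all genes, 22.5% against 11.1% and 2.35% in the contrasts with control.

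**Figure D2:**
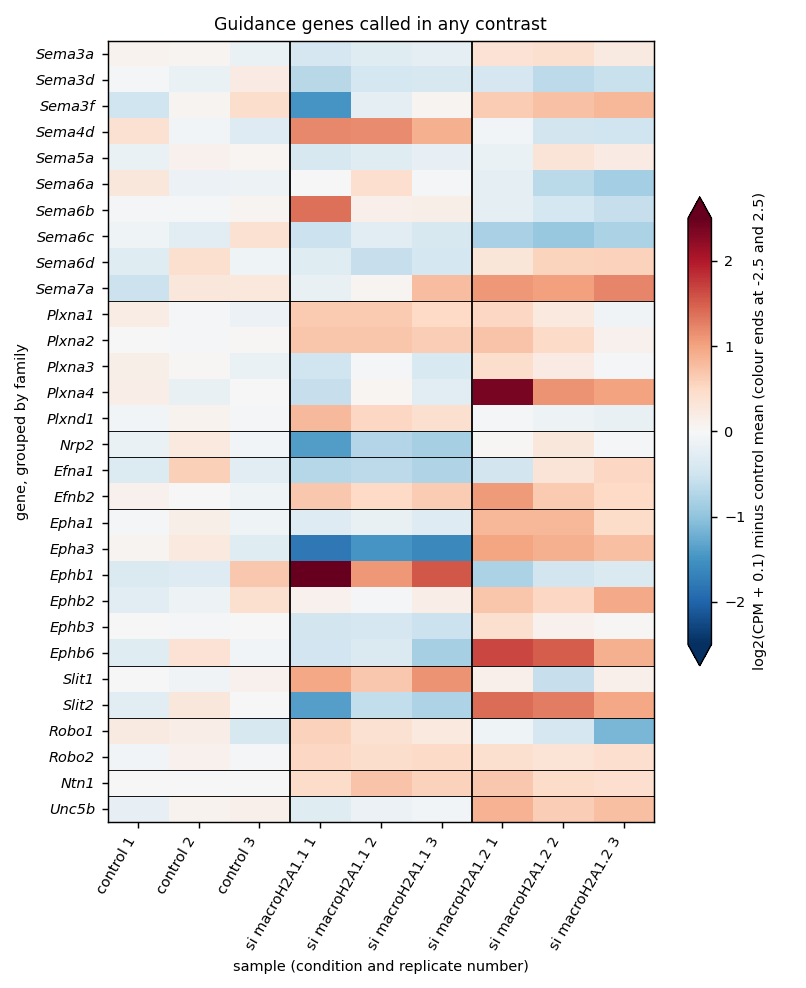
Levels of the 30 members called in any contrast, by gene (rows, grouped by family) and sample (columns), as log2(CPM + 0.1) minus the control mean, with red higher and blue lower. Slit2, Epha3 and Nrp2 are blue in the 3 si macroH2A1.1 samples, and Slit2, Ephb6 and Unc5b are red in the 3 si macroH2A1.2 samples.

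The 4 members with the lowest p between the knockdowns were Epha3, Slit2, Ephb6 and Unc5b, 3 receptors and a ligand that were all higher with si macroH2A1.2. To show what sequence these genes carry at their start, the 250 bases before and 50 bases after each RefSeq start site (GRCm38.p6) are given 5′ to 3′ on the strand of the gene, with motifs in capitals. The motifs searched on both strands were the GC box GGGCGG, read as CCGCCC on the other strand, the TATA box TATAAA, read as TTTATA, and as E-boxes CAGCTG, which reads the same on each strand, and further CAGGTG, read as CACCTG, E-boxes being the class of site that myogenic factors such as MyoD bind. No base below belongs to more than 1 motif. The genes were picked for display after their values were seen. The Epha3 window is chr16:63864126-63864425 on the minus strand, that of Slit2 is chr5:47982905-47983204 on the plus strand, that of Ephb6 is chr6:41605261-41605560 on the plus strand, and that of Unc5b is chr10:60831532-60831831 on the minus strand.
Epha3: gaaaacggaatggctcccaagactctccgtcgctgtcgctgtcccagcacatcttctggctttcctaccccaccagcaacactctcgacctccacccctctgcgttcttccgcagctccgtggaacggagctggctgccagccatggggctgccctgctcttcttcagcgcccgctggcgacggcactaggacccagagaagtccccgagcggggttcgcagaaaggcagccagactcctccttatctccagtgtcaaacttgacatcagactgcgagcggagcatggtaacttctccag
Slit2: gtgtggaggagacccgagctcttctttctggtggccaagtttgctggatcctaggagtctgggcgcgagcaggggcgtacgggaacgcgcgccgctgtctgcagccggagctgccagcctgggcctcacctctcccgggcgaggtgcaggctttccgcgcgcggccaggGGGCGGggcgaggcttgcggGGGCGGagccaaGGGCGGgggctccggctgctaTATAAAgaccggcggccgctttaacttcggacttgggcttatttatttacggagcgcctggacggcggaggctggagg
Ephb6: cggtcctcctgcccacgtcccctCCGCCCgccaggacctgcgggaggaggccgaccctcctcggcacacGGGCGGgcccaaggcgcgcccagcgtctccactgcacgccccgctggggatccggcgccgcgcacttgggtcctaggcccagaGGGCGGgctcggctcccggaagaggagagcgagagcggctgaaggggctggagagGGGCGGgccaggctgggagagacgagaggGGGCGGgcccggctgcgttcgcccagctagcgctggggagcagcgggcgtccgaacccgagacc
Unc5b: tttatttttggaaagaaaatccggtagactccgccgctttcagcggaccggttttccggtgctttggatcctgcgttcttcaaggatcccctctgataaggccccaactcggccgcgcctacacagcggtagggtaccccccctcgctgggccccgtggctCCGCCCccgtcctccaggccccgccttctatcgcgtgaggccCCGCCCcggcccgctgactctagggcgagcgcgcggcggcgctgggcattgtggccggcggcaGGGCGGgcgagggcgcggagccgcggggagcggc
The Slit2 window holds 1 TATA box from position -28 to -23, counted from the start site, and 3 GC boxes between -81 and -44. That of Ephb6 holds 5 GC boxes and that of Unc5b 3, and the Epha3 window, with a GC content of 60.7%, holds none of the motifs. A GC box was present in 43 of the 59 member promoters found in the RefSeq table (72.9%) against 35.6% of all 32817 promoters, and median GC content was 65.0% against 52.7%. CAGCTG was present in 18.6% of member promoters and 16.3% of all, CAGGTG in 13.6% and 20.2%, and TATAAA in 3.39% and 13.6%. Among the 24 called members with a promoter in the table, the shares were 66.7% for the GC box, 16.7% for CAGCTG, 20.8% for CAGGTG and 8.33% for TATAAA.

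Slit2, a large secreted repellent and the main Slit of these cells, was the 1 member called in all 3 contrasts. Its level was 25.9, 37.8 and 30.8 CPM in control, 12.0, 20.3 and 18.3 with si macroH2A1.1 and 81.8, 76.0 and 60.8 with si macroH2A1.2. No sample of one group overlapped another, with si macroH2A1.1 lowest and si macroH2A1.2 highest. Slit2 fell with si macroH2A1.1 (1.87-fold lower, log2 fold change -0.90 ± 0.20, adjusted p = 0.0237) and rose with si macroH2A1.2 (2.31-fold, 1.21 ± 0.20, adjusted p = 0.0202). Between the knockdowns it was 4.32-fold lower with si macroH2A1.1 (-2.11 ± 0.21, adjusted p = 0.000293). Slit1, better known from the nervous system, was lower than Slit2 per length in control (0.186 ± 0.0132 against 3.16 ± 0.604 CPM per kb). Its level was 1.04, 0.986 and 1.13 CPM in control, 2.15, 1.73 and 2.42 with si macroH2A1.1 and 1.16, 0.678 and 1.15 with si macroH2A1.2. The si macroH2A1.1 samples were above all others, and Slit1 rose against control (0.99 ± 0.25, adjusted p = 0.0343) and against si macroH2A1.2 (1.07 ± 0.25, adjusted p = 0.0148), the direction opposite to Slit2. Slit3 lay between 0.0551 and 0.430 CPM in every sample and was not called. The call of Slit2 with si macroH2A1.1 was lost without control replicate 2 or 3 or si macroH2A1.1 replicate 1 or 3 (adjusted p of up to 0.0906). For Slit2 with si macroH2A1.2, leaving out control replicate 1 or 3 or si macroH2A1.2 replicate 1 or 2 lost the call, with an adjusted p of up to 0.0833. Slit1 with si macroH2A1.1 was no longer called without control replicate 1, 2 or 3 or si macroH2A1.1 replicate 1 or 3 (adjusted p of up to 0.115). The call of Slit1 between the knockdowns was lost without si macroH2A1.1 replicate 3 or si macroH2A1.2 replicate 2 (adjusted p of up to 0.0553).

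**Figure D3:**
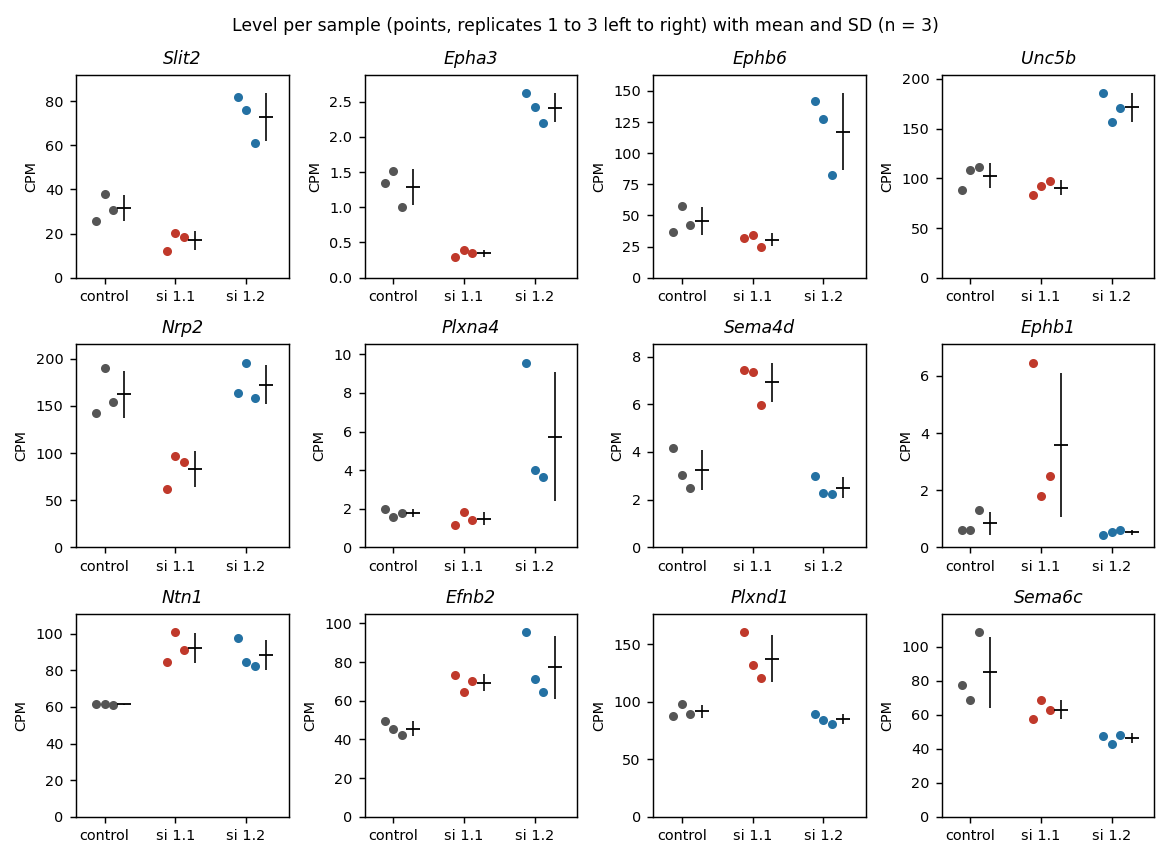
Level in CPM of 12 called genes, chosen after their values were seen, in each sample, with points for replicates 1 to 3 from left to right and the mean and SD of 3 samples beside them. In the Slit2 panel the control points (25.9 to 37.8) lie between those of si macroH2A1.1 (12.0 to 20.3) and si macroH2A1.2 (60.8 to 81.8), and in the Ntn1 and Efnb2 panels both knockdowns lie above control.

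Of the Slit receptors, Robo1 and Robo2 had enough counts to be tested. Robo1 was 31.5, 30.4 and 20.6 CPM in control, 40.3, 35.2 and 32.1 with si macroH2A1.1 and 25.0, 20.2 and 12.2 with si macroH2A1.2, so that si macroH2A1.1 samples were the highest and control and si macroH2A1.2 overlapped. It was 1.87-fold higher with si macroH2A1.1 than with si macroH2A1.2 (0.91 ± 0.24, adjusted p = 0.0237) and was called in neither contrast against control. Robo2 was 10.3, 11.7 and 10.5 CPM in control, 15.5, 14.6 and 15.1 with si macroH2A1.1 and 14.4, 13.7 and 14.4 with si macroH2A1.2. Both knockdowns lay above every control sample, and the rise was called with si macroH2A1.1 (0.48 ± 0.10, adjusted p = 0.0206) but not with si macroH2A1.2 (0.39 ± 0.11, adjusted p = 0.0903), with a difference between the knockdowns of 0.09 ± 0.10 (adjusted p = 0.575). Robo3 of commissural axons and Robo4 of endothelium were at most 0.247 CPM in any sample. For Robo1 between the knockdowns, leaving out si macroH2A1.1 replicate 1 or si macroH2A1.2 replicate 2 or 3 lost the call, with an adjusted p of up to 0.0912. Robo2 with si macroH2A1.1 was no longer called without control replicate 1 or 3 or si macroH2A1.1 replicate 1 or 3 (adjusted p of up to 0.0709).

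Of the 14 Eph receptors 11 were tested, and between the knockdowns 1 was higher and 5 were lower with si macroH2A1.1. Of all tested genes, 12.0% were called higher and 10.5% lower in that contrast. The median log2 fold change of the family was -0.13 with si macroH2A1.1, 0.58 with si macroH2A1.2 and -0.50 between the knockdowns. Summed over the family, Eph receptor mRNA was 245, 285 and 252 CPM in control, 237, 228 and 224 with si macroH2A1.1 and 424, 388 and 321 with si macroH2A1.2. The si macroH2A1.2 samples were above all others, and the si macroH2A1.1 samples lay just below control.

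Epha3, a receptor for A-type ephrins, had the largest fall of any member against control. It was rare, at 1.34, 1.52 and 1.01 CPM in control, 0.296, 0.395 and 0.346 with si macroH2A1.1 and 2.62, 2.43 and 2.20 with si macroH2A1.2, with no overlap between any groups. Epha3 was 3.70-fold lower with si macroH2A1.1 than in control (-1.89 ± 0.25, adjusted p = 0.00355) and 6.93-fold lower than with si macroH2A1.2 (-2.79 ± 0.25, adjusted p = 0.000199), and both calls held without any 1 sample. Its difference between si macroH2A1.2 and control was 0.91 ± 0.22 (adjusted p = 0.0668; blocked by replicate number, 0.0450). Epha1, which also binds A-type ephrins, was 10.9, 12.3 and 10.2 CPM in control, 8.84, 9.78 and 8.89 with si macroH2A1.1 and 19.8, 19.9 and 15.2 with si macroH2A1.2, where all 3 samples were the highest. It rose with si macroH2A1.2 (0.72 ± 0.14, adjusted p = 0.0296) and was 2.0-fold lower with si macroH2A1.1 than with si macroH2A1.2 (adjusted p = 0.00129). Epha1 shares 236 bases, 6.01% of its exons, with Zyx on the opposite strand, a gene of far more counts (a mean of 19978 against 495.0), and strand use in counting is not given in the sources used here. Zyx itself was not called (log2 fold change 0.02 ± 0.13 with si macroH2A1.2, adjusted p = 0.958). The call of Epha1 with si macroH2A1.2 was lost without control replicate 1 or 3 or si macroH2A1.1 replicate 3 or si macroH2A1.2 replicate 1 or 2 (adjusted p of up to 0.117). It was also lost in a fit of the 2 groups alone (adjusted p = 0.0536).

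Epha2, the most abundant Eph receptor per length, was not called in any contrast, with means of 65.9 ± 10.5, 70.2 ± 4.96 and 75.2 ± 13.1 CPM in control, si macroH2A1.1 and si macroH2A1.2. Epha4, known from motor axon guidance, was 2.33, 3.22 and 3.45 CPM in control, 4.79, 2.96 and 4.19 with si macroH2A1.1 and 5.67, 4.67 and 6.61 with si macroH2A1.2. Its si macroH2A1.2 samples were above every control sample but the difference was not called (0.91 ± 0.23, adjusted p = 0.0771). Epha5 and Epha7, at 1.28 ± 0.354 and 1.03 ± 0.548 CPM in control, were also not called.

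Of the EphB receptors, which bind B-type ephrins, Ephb6 is kinase-dead and was the one that rose with si macroH2A1.2. It was 36.3, 57.6 and 42.6 CPM in control, 32.1, 34.6 and 25.0 with si macroH2A1.1 and 142, 127 and 82.3 with si macroH2A1.2, and no groups overlapped. Ephb6 rose 2.58-fold with si macroH2A1.2 (1.36 ± 0.22, adjusted p = 0.0191) and was 3.84-fold lower with si macroH2A1.1 than with si macroH2A1.2 (-1.94 ± 0.23, adjusted p = 0.000555). Ephb1 went the other way, at 0.589, 0.613 and 1.31 CPM in control, 6.47, 1.78 and 2.51 with si macroH2A1.1 and 0.413, 0.548 and 0.591 with si macroH2A1.2. The si macroH2A1.1 samples were the highest, and replicate 1 alone stood well above the rest. Ephb1 rose 4.25-fold against control (2.09 ± 0.49, adjusted p = 0.0265) and was 6.89-fold higher than with si macroH2A1.2 (2.78 ± 0.52, adjusted p = 0.00513). Without replicate 1 of si macroH2A1.1 these log2 fold changes were 1.36 and 2.04. For Ephb6 with si macroH2A1.2, leaving out control replicate 1 or 3 or si macroH2A1.2 replicate 1 or 2 lost the call, with an adjusted p of up to 0.0785. Ephb1 with si macroH2A1.1 was no longer called without control replicate 1 or 2 or si macroH2A1.1 replicate 1 or 3 (adjusted p of up to 0.101).

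Ephb3 was 68.4, 66.4 and 68.0 CPM in control, 49.4, 50.8 and 46.8 with si macroH2A1.1 and 89.6, 73.1 and 68.7 with si macroH2A1.2, the si macroH2A1.1 samples being below all others. It fell with si macroH2A1.1 (-0.46 ± 0.10, adjusted p = 0.0229) and was lower than with si macroH2A1.2 (-0.65 ± 0.10, adjusted p = 0.00244). Ephb2 was 17.2, 19.0 and 27.5 CPM in control, 22.5, 20.01 and 23.2 with si macroH2A1.1 and 33.5, 29.95 and 40.3 with si macroH2A1.2, so that here the si macroH2A1.2 samples stood apart, above all others. Its difference between the knockdowns was called (-0.66 ± 0.18, adjusted p = 0.0248), while that between si macroH2A1.2 and control (0.70 ± 0.18) had an adjusted p of 0.0736, or 0.0157 with the replicate block. Ephb4, the partner of Efnb2 in arteries and veins, was not called, with means of 41.5 ± 3.18, 37.5 ± 3.22 and 43.6 ± 1.66 CPM. The call of Ephb3 with si macroH2A1.1 was lost without control replicate 1, 2 or 3 or si macroH2A1.1 replicate 1 or 3 (adjusted p of up to 0.0866). For Ephb2 between the knockdowns, leaving out si macroH2A1.1 replicate 1, 2 or 3 or si macroH2A1.2 replicate 3 lost the call, with an adjusted p of up to 0.0850.

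Among the ephrins, Efnb2, a transmembrane ligand of EphB receptors and of Epha4, was the most abundant per length and rose in both knockdowns. It was 49.4, 45.4 and 42.1 CPM in control, 73.2, 64.6 and 70.4 with si macroH2A1.1 and 95.5, 71.5 and 64.7 with si macroH2A1.2. All 6 knockdown samples were above the 3 controls, which both contrasts share. The rise was 1.52-fold with si macroH2A1.1 (0.60 ± 0.14, adjusted p = 0.0247) and 1.69-fold with si macroH2A1.2 (0.76 ± 0.14, adjusted p = 0.0265). The knockdowns overlapped, with a difference of -0.16 ± 0.14 (adjusted p = 0.458). Efna1, anchored in the membrane by a lipid, was 8.0, 15.5 and 8.46 CPM in control, 6.17, 6.45 and 5.99 with si macroH2A1.1 and 7.38, 12.7 and 14.5 with si macroH2A1.2. Its si macroH2A1.1 samples were the lowest, and it was called between the knockdowns at the edge of the threshold (-0.90 ± 0.29, adjusted p = 0.0495). The other 6 ephrins were not called. Efnb2 with si macroH2A1.1 was no longer called without control replicate 2 or 3 or si macroH2A1.1 replicate 1 or 3 (adjusted p of up to 0.0880). The call of Efnb2 with si macroH2A1.2 was lost without control replicate 1, 2 or 3 or si macroH2A1.2 replicate 1 or 2 (adjusted p of up to 0.102). It was also lost in a fit of the 2 groups alone (adjusted p = 0.0539). For Efna1 between the knockdowns, leaving out control replicate 3 or si macroH2A1.1 replicate 1, 2 or 3 or si macroH2A1.2 replicate 2 or 3 lost the call, with an adjusted p of up to 0.153. This call was also lost in limma-voom, with DESeq2 size factors and on library totals without TMM (adjusted p = 0.0724, 0.0502 and 0.0624).

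Of the secreted class 3 semaphorins, Sema3d was among the most abundant members and read 206, 188 and 245 CPM in control, 132, 155 and 159.7 with si macroH2A1.1 and 159, 135 and 144 with si macroH2A1.2. Both knockdowns lay entirely below control and overlapped each other. Sema3d fell with si macroH2A1.1 (-0.52 ± 0.12, adjusted p = 0.0287), and its difference with si macroH2A1.2 was -0.54 ± 0.12 (adjusted p = 0.0531; blocked by replicate number, 0.0357). Sema3a, a repellent of motor and sensory axons that satellite cells also secrete, was 68.1, 67.8 and 57.7 CPM in control, 47.9, 52.0 and 54.7 with si macroH2A1.1 and 83.2, 85.0 and 75.1 with si macroH2A1.2, in 3 groups that did not overlap. It was 1.57-fold lower with si macroH2A1.1 than with si macroH2A1.2 (-0.65 ± 0.10, adjusted p = 0.00189), a call that held without any 1 sample. Against control its differences were -0.32 ± 0.10 with si macroH2A1.1 (adjusted p = 0.0603) and 0.33 ± 0.10 with si macroH2A1.2 (adjusted p = 0.126). Sema3f, a ligand of Nrp2, was 3.08, 4.61 and 6.06 CPM in control, 1.53, 3.78 and 4.63 with si macroH2A1.1 and 6.91, 7.44 and 7.90 with si macroH2A1.2, where its samples were the highest. It was 2.23-fold lower with si macroH2A1.1 than with si macroH2A1.2 (adjusted p = 0.0408). Sema3b, the semaphorin with the highest mean per length, and Sema3c and Sema3e were each at least 85.8 CPM in every sample and were not called. Sema3g, a further class 3 member, had means of 4.0 ± 1.98, 4.43 ± 1.64 and 2.16 ± 1.40 CPM, and its difference with si macroH2A1.2 (-0.89 ± 0.47, adjusted p = 0.404) was called only with the replicate block (adjusted p = 0.0339). Sema3d with si macroH2A1.1 was no longer called without control replicate 1 or 3 or si macroH2A1.1 replicate 1 or 3 (adjusted p of up to 0.103). The call of Sema3f between the knockdowns was lost without control replicate 2 or si macroH2A1.1 replicate 1 or 2 or si macroH2A1.2 replicate 1, 2 or 3 (adjusted p of up to 0.0996).

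Of the membrane-bound semaphorins, Sema4d, a ligand of Plxnb1 that is also known from lymphocytes, rose with si macroH2A1.1. Its level was 4.18, 3.04 and 2.5 CPM in control, 7.46, 7.36 and 5.99 with si macroH2A1.1 and 3.0, 2.27 and 2.23 with si macroH2A1.2. The si macroH2A1.1 samples were above all others, 2.14-fold over control (1.1 ± 0.22, adjusted p = 0.0147) and 2.77-fold over si macroH2A1.2 (1.47 ± 0.22, adjusted p = 0.00188). Among the class 6 semaphorins, transmembrane ligands of type A plexins, Sema6d differed in sign between the knockdowns from Sema6a, Sema6b and Sema6c. Sema6c was 77.4, 68.9 and 109 CPM in control, 57.5, 68.7 and 63.0 with si macroH2A1.1 and 47.7, 42.9 and 48.3 with si macroH2A1.2. Its si macroH2A1.2 samples were the lowest, and it was the only member called lower with si macroH2A1.2 (1.84-fold, -0.88 ± 0.16, adjusted p = 0.0239). Sema6d was 5.73, 4.74 and 5.25 CPM with si macroH2A1.1 and 8.84, 10.6 and 10.7 with si macroH2A1.2, around a control level of 7.28 ± 1.95. The knockdowns did not overlap, and Sema6d was lower with si macroH2A1.1 (-0.94 ± 0.19, adjusted p = 0.00798). Sema6a was 123, 166 and 121 CPM with si macroH2A1.1 and 104, 78.2 and 68.5 with si macroH2A1.2, around 125 ± 21.8 in control. Sema6a and Sema6b had the opposite sign, higher with si macroH2A1.1 than with si macroH2A1.2 by 0.71 ± 0.19 (adjusted p = 0.0227) and 1.13 ± 0.33 (adjusted p = 0.0351). Sema6c shared that sign (0.45 ± 0.16, adjusted p = 0.0634, or 0.0421 with the replicate block). Every si macroH2A1.2 sample of Sema6a and Sema6b also lay below every control sample, though neither was called in that contrast. For Sema6b, replicate 1 of si macroH2A1.1 stood at 6.12 CPM beside 2.49 and 2.56 in the others, and without it the difference fell to 0.57. For Sema4d with si macroH2A1.1, leaving out control replicate 2 or 3 or si macroH2A1.1 replicate 1 lost the call, with an adjusted p of up to 0.0641. Sema6c with si macroH2A1.2 was no longer called without control replicate 1 or si macroH2A1.2 replicate 1, 2 or 3 (adjusted p of up to 0.0904). The call of Sema6a between the knockdowns was lost without si macroH2A1.1 replicate 2 or si macroH2A1.2 replicate 2 or 3 (adjusted p of up to 0.0905). For Sema6b between the knockdowns, leaving out si macroH2A1.1 replicate 1 or si macroH2A1.2 replicate 1, 2 or 3 lost the call, with an adjusted p of up to 0.103. This call was also lost in limma-voom and in a fit of the 2 groups alone (adjusted p = 0.0606 and 0.0656).

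Sema7a, the lipid-anchored semaphorin that signals through integrins and Plxnc1, was 11.5, 20.3 and 20.01 CPM in control, 14.6, 17.7 and 28.7 with si macroH2A1.1 and 35.6, 34.4 and 39.0 with si macroH2A1.2. The si macroH2A1.2 samples were above all others, 2.10-fold over control, with an adjusted p of 0.0657 without and 0.0163 with the replicate block. Sema7a was lower with si macroH2A1.1 than with si macroH2A1.2 (-0.84 ± 0.26, adjusted p = 0.0425). Sema5a, which carries thrombospondin repeats, had means of 63.1 ± 6.11 CPM in control, 51.2 ± 3.49 with si macroH2A1.1 and 69.0 ± 11.6 with si macroH2A1.2, and was lower with si macroH2A1.1 than with si macroH2A1.2 (-0.43 ± 0.13, adjusted p = 0.0384). Sema4a, Sema4b, Sema4c, Sema4f and Sema4g were not called in any contrast, and of these Sema4c was the most abundant, with 87.8 ± 6.11 CPM in control. Sema7a between the knockdowns was no longer called without control replicate 2 or 3 or si macroH2A1.1 replicate 1 or 2 or si macroH2A1.2 replicate 1, 2 or 3 (adjusted p of up to 0.141). It was also lost on library totals without TMM (adjusted p = 0.0502). The call of Sema5a between the knockdowns was lost without control replicate 3 or si macroH2A1.1 replicate 1, 2 or 3 or si macroH2A1.2 replicate 2 or 3 (adjusted p of up to 0.146). This call was also lost on library totals without TMM and in a fit of the 2 groups alone (adjusted p = 0.0622 and 0.0546).

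**Figure D4:**
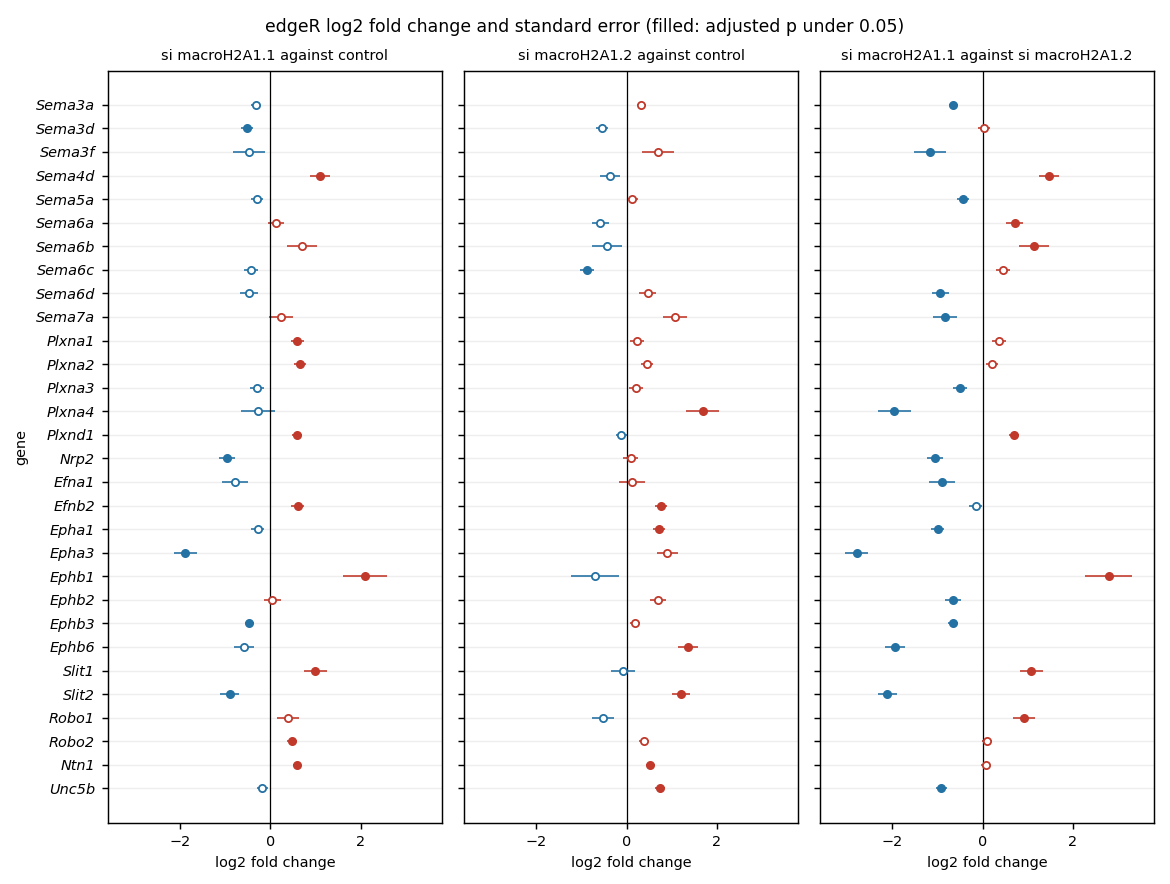
Log2 fold change (points) and SE (bars) of the 30 called members in the 3 contrasts, filled where the adjusted p from edgeR was below 0.05, with red higher and blue lower. Slit2 lies left of 0 with si macroH2A1.1 (-0.90) and right of 0 with si macroH2A1.2 (1.21), and Ntn1 and Efnb2 lie right of 0 in both.

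The neuropilins, coreceptors of class 3 semaphorins and of VEGF, are 2 genes. Nrp2 had the higher mean per length in control (24.2 ± 3.73 against 19.0 ± 2.17 CPM per kb), but they overlapped within their SD. Nrp2 was 143, 191 and 154 CPM in control, 61.6, 96.9 and 90.9 with si macroH2A1.1 and 164, 196 and 158 with si macroH2A1.2. All si macroH2A1.1 samples were below all others, and control and si macroH2A1.2 overlapped. Nrp2 was 1.95-fold lower with si macroH2A1.1 than in control (-0.97 ± 0.18, adjusted p = 0.0108) and 2.08-fold lower than with si macroH2A1.2 (-1.05 ± 0.18, adjusted p = 0.00316). Both calls held with any 1 sample left out. Nrp1 was 59.5, 73.4 and 72.5 CPM in control, 41.5, 71.4 and 68.3 with si macroH2A1.1 and 72.3, 87.8 and 82.9 with si macroH2A1.2, and was not called (between the knockdowns -0.42 ± 0.18, adjusted p = 0.127, or 0.0180 with the replicate block).

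Plexins carry the semaphorin signal into the cell through a GTPase-activating domain. With si macroH2A1.1, 3 of the 9 rose, where 6.18% of all tested genes rose. The median log2 fold change of the family was 0.48, against -0.01 over all genes. Plxna1 was 268, 231 and 212 CPM in control, 369, 373 and 335 with si macroH2A1.1 and 337, 279 and 222 with si macroH2A1.2, and its rise with si macroH2A1.1 was 0.60 ± 0.15 (adjusted p = 0.0340). Plxna2 was 72.5, 70.9 and 73.4 CPM in control, 117, 116 and 110.2 with si macroH2A1.1 and 119, 101 and 77.9 with si macroH2A1.2. Every knockdown sample was above control, but the rise was called only with si macroH2A1.1 (0.66 ± 0.13, adjusted p = 0.0151) and was 0.46 ± 0.13 with si macroH2A1.2 (adjusted p = 0.113), with a difference between the knockdowns of 0.20 ± 0.13 (adjusted p = 0.296). Plxnd1, the receptor of Sema3e, was 87.8, 97.9 and 89.5 CPM in control, 161, 132 and 121 with si macroH2A1.1 and 89.5, 84.4 and 80.6 with si macroH2A1.2. The si macroH2A1.1 samples were the highest, against control (0.59 ± 0.11, adjusted p = 0.0134) and against si macroH2A1.2 (0.70 ± 0.11, adjusted p = 0.00269), while its ligand Sema3e was 110.3 to 132 CPM in all 9 samples and was not called. For Plxna1 with si macroH2A1.1, leaving out control replicate 2 or 3 or si macroH2A1.1 replicate 1, 2 or 3 or si macroH2A1.2 replicate 2 lost the call, with an adjusted p of up to 0.117. Plxna2 with si macroH2A1.1 was no longer called without control replicate 2 or 3 or si macroH2A1.1 replicate 1 (adjusted p of up to 0.0624). The call of Plxnd1 with si macroH2A1.1 was lost without control replicate 3 (adjusted p of 0.0533).

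Plxna4, a partner of Nrp1, had the largest rise of any member with si macroH2A1.2. It was 2.01, 1.55 and 1.78 CPM in control, 1.16, 1.83 and 1.43 with si macroH2A1.1 and 9.58, 3.99 and 3.65 with si macroH2A1.2, so that replicate 1 of si macroH2A1.2 stood above the other 2, which were themselves above all remaining samples. The rise was 3.22-fold against control (1.69 ± 0.36, adjusted p = 0.0433), and Plxna4 was 3.89-fold lower with si macroH2A1.1 than with si macroH2A1.2 (-1.96 ± 0.37, adjusted p = 0.00534). Without that replicate the log2 fold changes were 1.1 and -1.38. Plxna3 was lower with si macroH2A1.1 than with si macroH2A1.2, at 62.9, 86.6 and 68.8 and 121, 103 and 86.7 CPM (-0.51 ± 0.15, adjusted p = 0.0378). Plxnb2, the highest member of all, read 505 to 597 CPM in the 9 samples and was not called (log2 fold change -0.05 ± 0.10 with si macroH2A1.1 and 0.05 ± 0.10 with si macroH2A1.2). Plxnb1, Plxnb3 and Plxnc1 were also not called. For Plxna4 with si macroH2A1.2, leaving out control replicate 1, 2 or 3 or si macroH2A1.1 replicate 2 or 3 or si macroH2A1.2 replicate 1 or 2 lost the call, with an adjusted p of up to 0.133. This call was also lost in limma-voom and in a fit of the 2 groups alone (adjusted p = 0.0676 and 0.0735). Plxna3 between the knockdowns was no longer called without control replicate 2 or si macroH2A1.1 replicate 1 or 3 or si macroH2A1.2 replicate 1 or 2 (adjusted p of up to 0.140). This call was also lost on library totals without TMM and in a fit of the 2 groups alone (adjusted p = 0.0560 and 0.0585).

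Of the netrins, Ntn1, the classical laminin-related guidance cue, rose in both knockdowns. It was 61.6, 61.6 and 61.0 CPM in control, 84.6, 101 and 91.3 with si macroH2A1.1 and 97.9, 84.7 and 82.4 with si macroH2A1.2. The control samples differed by under 1 CPM, all 6 knockdown samples lay above them, and the knockdowns overlapped. The rise was 1.5-fold with si macroH2A1.1 (0.59 ± 0.10, adjusted p = 0.00729), held without any 1 sample, and 1.44-fold with si macroH2A1.2 (0.52 ± 0.10, adjusted p = 0.0280). Ntn4, a basement membrane netrin, was 47.6, 46.7 and 38.9 CPM in control, 58.5, 94.5 and 59.3 with si macroH2A1.1 and 57.6, 55.9 and 38.9 with si macroH2A1.2, and missed the threshold with si macroH2A1.1 (0.67 ± 0.20, adjusted p = 0.0599, or 0.0169 with the block). Ntn3 and Ntn5 were under 1 CPM in every sample and were not called. The call of Ntn1 with si macroH2A1.2 was lost without control replicate 1, 2 or 3 or si macroH2A1.1 replicate 3 or si macroH2A1.2 replicate 1 or 2 (adjusted p of up to 0.102).

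The netrin receptor Unc5b, also a dependence receptor, rose with si macroH2A1.2. It was 88.1, 109 and 111 CPM in control, 82.8, 92.4 and 97.0 with si macroH2A1.1 and 186, 157 and 171 with si macroH2A1.2, where each sample was above all others. The rise was 1.67-fold against control (0.74 ± 0.12, adjusted p = 0.0166), the lowest adjusted p of any member in that contrast, and Unc5b was 1.89-fold lower with si macroH2A1.1 than with si macroH2A1.2 (-0.92 ± 0.12, adjusted p = 0.000834). Control and si macroH2A1.1 overlapped. Unc5c, at 9.31 ± 1.70 CPM in control, and Unc5d, at 0.341 ± 0.182, were not called. The attractive netrin receptor Dcc was at or under 3 counts in every sample, whereas the related Neo1 (neogenin) was 147 ± 6.87 CPM in control. Neo1 was higher with si macroH2A1.1, at 177 ± 8.22 CPM, than with si macroH2A1.2, at 134 ± 1.41 (0.40 ± 0.08, adjusted p = 0.00842). For Unc5b with si macroH2A1.2, leaving out control replicate 1 or si macroH2A1.2 replicate 1 lost the call, with an adjusted p of up to 0.0603.

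Beside the members, 68 genes that act with them were listed by role, and 60 of them were tested. Whether the calls of these partner genes held with 1 sample left out is not given here. With si macroH2A1.1, 8 rose and 1 fell (15.0% of those tested, against 11.1% of all genes), and with si macroH2A1.2, 4 rose and 1 fell (8.33% against 2.35%). Between the knockdowns 9 were higher and 7 lower with si macroH2A1.1 (26.7% against 22.5%). The median log2 fold changes were 0.08, 0.03 and 0.03, and the first and last of these shares lay near that of all genes. Of the coreceptors, Nrcam, an adhesion molecule that partners neuropilins, went from 0.738 ± 0.136 CPM in control to 6.10 ± 4.33 with si macroH2A1.1 (3.04 ± 0.49, adjusted p = 0.00642) and was 0.592 ± 0.152 with si macroH2A1.2. Dscam, a further netrin receptor, was rare but rose in both knockdowns (2.11 ± 0.47 and 2.23 ± 0.47, adjusted p = 0.0219 and 0.0408), from 0.175 ± 0.0509 CPM in control to 0.770 ± 0.276 and 0.836 ± 0.408. Vegfa, a growth factor that binds neuropilins, was lower with si macroH2A1.1 than with si macroH2A1.2 (-1.1 ± 0.29, adjusted p = 0.0242).

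Downstream of plexins, Dpysl3, a collapsin response mediator protein that semaphorin signals act on, rose with si macroH2A1.2 from 249 ± 42.9 to 614 ± 81.1 CPM (1.30 ± 0.16, adjusted p = 0.00830) and was 245 ± 36.8 with si macroH2A1.1. Rnd3, a small GTPase, also rose with si macroH2A1.2 (0.68 ± 0.14, adjusted p = 0.0390), and Rras, a substrate of the plexin GTPase-activating domain, fell with si macroH2A1.1 (-0.59 ± 0.17, adjusted p = 0.0488). Downstream of Eph receptors and ephrins, 4 of 12 genes rose with si macroH2A1.1, where 6.18% of all tested genes rose. The 4 were Vav3 and the chimaerins Chn1 and Chn2, which act on Rac, and Grip1, a scaffold that binds B-type ephrins. Chn1 was 32.3 ± 3.92 CPM in control, 50.2 ± 6.00 with si macroH2A1.1 and 22.2 ± 2.07 with si macroH2A1.2, with calls against control (0.64 ± 0.13, adjusted p = 0.0151) and between the knockdowns (1.17 ± 0.13, adjusted p = 0.000428). Grip1 was called in all 3 contrasts, higher with si macroH2A1.1 (1.48 ± 0.36, adjusted p = 0.0299) and lower with si macroH2A1.2 (-1.96 ± 0.43, adjusted p = 0.0472) than in control, at 1.01 ± 0.467, 2.83 ± 0.902 and 0.258 ± 0.0875 CPM in control, si macroH2A1.1 and si macroH2A1.2. Against control edgeR called 0 of the 14 genes downstream of Robo, Dcc and Unc5 in either knockdown. In the same 2 contrasts 11.1% and 2.35% of all genes were called. At an unadjusted p below 0.05 edgeR had 4 and 2 of the 14, and DESeq2 called 1 and 0. Between the knockdowns 3 were called (21.4%, against 22.5% of all genes), Srgap1 and Dapk1 higher and Pak3 lower with si macroH2A1.1.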

How the data were processed

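The authors sequenced single reads of 50 bases and estimated reads per gene with Salmon on GRCm38 (mm10 in the submitters' processing notes). The deposited table holds these expected counts as whole numbers, without normalization, for all 9 samples. The deposited table of normalized values was not used. The annotation release and the strand setting are not given in the sources used here, and GENCODE M21 held 52762 of the 52780 genes. Groups came from the sample labels. The 9 samples entered 1 model in edgeR 4.0.16 (R 4.3.3) with TMM scaling, the filterByExpr function (19545 genes left), the legacy form of the quasi-likelihood test, 3 contrasts and no replicate term. Totals were 36924252 to 42223108 counts per sample, and precision rests on the spread of 3 samples a group. A level at or under 3 counts was taken as not distinct from 0. Within each replicate number the sample names in the labels run consecutively over the 3 groups, and the labels do not say what this marks. Same-numbered samples of si macroH2A1.2 and control deviated together (r = 0.331, 0.291 and 0.196, against -0.267 to 0.036 for the rest). In the other contrasts r was 0.084 to 0.116 for same-numbered pairs and -0.096 to -0.012 for the rest. Deviations were centred within each group, so r of the rest is not independent of that of same-numbered pairs. Because of these values, counts with the replicate number as a block are given for each contrast. The fits with 1 sample left out had no block. Alternatives were DESeq2 1.42.0, limma-voom (limma 3.58.1), other scalings, filters, a stricter threshold, the block, own samples only, and leaving out each sample. The tests were checked on simulated data. The members, the list of partner genes and the markers were chosen with earlier results of these data known. Hjv of the partner list stands as Hfe2 in GENCODE M21. Members were named when called in any contrast, when highest in their family in control, or when lowest in p in their family. Promoters came from RefSeq (GRCm38.p6), and Python 3.11.15, pandas 2.3.3 and matplotlib 3.10.9 were used.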

Additional observations from a re-analysis of the deposited data

How the results depend on the processing

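No called value of a member changed sign under any alternative, and 16 of the 45 calls held with any 1 sample left out, 3 of 14 with si macroH2A1.1, 0 of 8 with si macroH2A1.2 and 13 of 23 between the knockdowns. With si macroH2A1.1 against control, members called numbered 14, 23 with the replicate block (15 higher, 8 lower), 1 under the stricter threshold, and 4 to 16 with 1 sample left out, the lowest count without control replicate 3 or si macroH2A1.1 replicate 1. With si macroH2A1.2 against control the number was 8, 15 in DESeq2 (13 higher, 2 lower), 13 with the replicate block, 0 under the stricter threshold (22 at an unadjusted p below 0.05), and 0 to 10 with 1 sample left out. The count of 0 came from edgeR without control replicate 1 (19 members at an unadjusted p below 0.05) and without si macroH2A1.2 replicate 1 (23 members). Between the knockdowns it was 23, 28 with the replicate block, 10 under the stricter threshold, and 14 to 24 with 1 sample left out, the lowest without si macroH2A1.2 replicate 2. The remaining alternatives gave 14 to 18, 6 to 12 and 20 to 25, and ended calls of Sema5a, Sema6b, Sema7a, Plxna3 and Efna1 between the knockdowns and of Plxna4, Efnb2 and Epha1 with si macroH2A1.2 (adjusted p-values of 0.0502 to 0.0735). The replicate block ended no call. Shares of all genes are given above for the block and the stricter threshold. They were not computed for the fits with 1 sample left out or the remaining alternatives. Those counts therefore describe the members alone and do not set them apart from other genes. The cause of these changes was not tested.

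With 1 sample left out, 12 values that were not called changed sign. Against si macroH2A1.2, the si macroH2A1.1 log2 fold change ran from -0.27 to 0.024 for Efnb2, from -0.0082 to 0.14 for Ntn1, from -0.064 to 0.20 for Sema3b and from -0.030 to 0.11 for Sema3d. For si macroH2A1.1 against control it ran from -0.014 to 0.22 for Epha2, from -0.087 to 0.27 for Ephb2, from -0.32 to 0.036 for Nrp1, from -0.043 to 0.28 for Sema6a and from -0.10 to 0.43 for Sema7a. For si macroH2A1.2 against control it ran from -0.083 to 0.49 for Efna1, from -0.015 to 0.22 for Nrp2 and from -0.21 to 0.13 for Slit1. Depth limits the genes under 1 CPM most.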
